A study of Mus musculus with 9 samples.

Results

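Wnt ligands and the secreted proteins that hold them back were measured by RNA sequencing in mouse pancreatic stellate cells, as a group of 10 genes taken by symbol from a table of 17156 genes. The group holds 5 ligands (Wnt2, Wnt4, Wnt5a, Wnt9a and Wnt10a) and 5 secreted antagonists (Sfrp1, Sfrp2, Dkk2, Dkk3 and Wif1). All 10 symbols were in the table, and 9 passed the filter on low counts; Wif1 did not, and Wnt2 passed through its MG-CM counts alone, so its difference from the other groups was in part required by the filter. Stellate cells are the fibroblast-like cells of the pancreas, and the lines used here (PSC4 and PSC5) came from wild-type C57BL/6J pancreata. For 4 days they were kept in control DMEM containing 5% FBS (MG-CM, which the labels gloss as Matrigel-conditioned or control medium), in medium conditioned by tumour organoids (CM), or in CM with 500 nM of the Janus kinase inhibitor AZD1480 (CM-JAKi). Each group had 3 libraries. Replicate 1 was PSC4, replicates 2 and 3 were PSC5-I and PSC5-II, and each replicate number had its own source of conditioned medium. Line and medium source therefore change together, and PSC4 is a single replicate. The labels do not say how many animals gave rise to them. Values below are given in the order of replicates 1, 2 and 3.

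Wnt ligands are lipid-modified secreted proteins that bind Frizzled receptors together with the co-receptors Lrp5 and Lrp6 or with Ror and Ryk. In the beta-catenin branch, receptor binding stops the destruction of beta-catenin, which then drives target genes through Tcf and Lef factors; other branches act on cell polarity and calcium. Sfrp proteins carry a Frizzled-like domain and bind Wnts outside the cell, as does Wif1, whereas Dkk2 binds the Lrp co-receptors. In fibroblasts of the pancreas, Wnt ligands and their antagonists are known as signals to neighbouring epithelium and stroma.

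Promoter sequence was at hand for 6 of the 10 members in the RefSeq table (build GRCm38.p6; no entry for Wnt5a, Wnt10a, Sfrp1 or Dkk3). The 4 genes whose RNA was lower in CM are shown by the 250 bases before their annotated start, 5′ to 3′ on the gene's own strand, so that the stretch next to each start can be read beside its values. Capitals mark a TATAAA match. Dkk2 lies on the plus strand (chr3:132085042-132085291), as do Sfrp2 (chr3:83766071-83766320) and Wnt4 (chr4:137277385-137277634), and Wnt2 on the minus strand (chr6:18030446-18030695).
Dkk2: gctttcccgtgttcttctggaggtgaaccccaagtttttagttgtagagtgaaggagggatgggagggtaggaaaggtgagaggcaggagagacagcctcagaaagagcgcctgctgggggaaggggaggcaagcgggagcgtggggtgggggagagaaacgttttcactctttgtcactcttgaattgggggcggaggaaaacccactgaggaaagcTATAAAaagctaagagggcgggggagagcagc
Sfrp2: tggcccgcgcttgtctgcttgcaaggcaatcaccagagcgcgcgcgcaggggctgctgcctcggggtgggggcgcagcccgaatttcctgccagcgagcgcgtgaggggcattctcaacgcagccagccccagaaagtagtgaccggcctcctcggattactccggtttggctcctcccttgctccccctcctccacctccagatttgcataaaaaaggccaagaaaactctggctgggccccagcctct
Wnt4: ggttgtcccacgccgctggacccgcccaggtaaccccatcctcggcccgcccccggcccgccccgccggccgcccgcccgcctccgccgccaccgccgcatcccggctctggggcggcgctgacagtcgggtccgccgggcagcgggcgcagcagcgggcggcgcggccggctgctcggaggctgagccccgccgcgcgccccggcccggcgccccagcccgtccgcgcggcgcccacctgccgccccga
Wnt2: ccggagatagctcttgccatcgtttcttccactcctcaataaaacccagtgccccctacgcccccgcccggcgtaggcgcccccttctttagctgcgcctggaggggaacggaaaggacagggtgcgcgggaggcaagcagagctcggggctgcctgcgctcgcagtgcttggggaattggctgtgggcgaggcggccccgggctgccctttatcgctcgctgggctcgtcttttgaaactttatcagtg
Among these windows Dkk2 holds the TATAAA match, with its first base 32 before the start, and has the lowest base composition in G and C of the 6 members (57.7% over the 300 bases that reach 50 past the start, against a median of 52.7% over all 32851 windows). Wnt4 is at 84.3% with 51 CpG pairs, Wnt2 at 65.7% with 27, Sfrp2 at 66% with 22 and Dkk2 at 57.7% with 11. On both strands of the 300 bases, 3 letter strings were searched: TATAAA was in 2 of the 6 members' windows (Dkk2 and, on the opposite strand, Wif1) and in 13.6% of all windows. Neither TTCNNNGAA, the spaced palindrome known from STAT factors, nor CTTTGA, the core known from Tcf and Lef factors, was in any of the 6 windows; they are in 8.3% and 16% of all windows. These matches describe letters in a short window and say nothing of binding.

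Depth was even: 25625806 to 32466018 counts per library, with 15678 to 15944 genes counted. Levels are counts scaled to a depth of 1000000 (CPM) after TMM scaling, and a gene is called when its adjusted p is under 0.05 in edgeR's quasi-likelihood F-test over all 13613 genes that passed the filter. Fold changes are log2 values with their standard error. Across all genes, CM against MG-CM called 660 higher and 734 lower, and CM-JAKi against CM called 1369 higher and 1216 lower; scaled by library size alone these splits were 495 to 887 and 1853 to 865. Same-numbered libraries deviated together, so a fit with the replicate number as a block was also made. Its value is given where it changes the call of a member, and for some of the other genes. Of the markers of stellate cells, Pdgfrb was at 529 ± 65.0 CPM (SD, n = 3) in MG-CM, while Des was low at 1.71 ± 0.66, and Ptprc and Cd3e of leukocytes stayed under 3 counts in every library. The summed level of 9 stellate and fibroblast markers ranged over 4024 to 4406 CPM in the MG-CM libraries, 3799 to 7196 in CM and 4643 to 5564 in CM-JAKi, and single markers in it moved opposite ways. In CM, Dcn was called higher (375 to 2718 CPM, group means) and Vim lower (1557 to 765), and in CM-JAKi against CM, Col1a1 (636 to 1064) and Col1a2 (349 to 859) were called higher and Dcn lower (2718 to 398); their part in the members' values was not tested. In bulk RNA, fewer cells of a kind and less RNA per cell cannot be told apart.

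Of the 9 members that passed the filter, 4 were called lower in CM than in MG-CM (Wnt2, Wnt4, Sfrp2 and Dkk2) and none higher, where 5.39% of all genes were called lower and 4.85% higher. Without Wnt2 the calls are 3. The members were chosen with earlier results of these data known, so a count above the share over all genes is a description and no test of the family. CM-JAKi against CM called 2 members higher (Sfrp2 and Dkk2) and none lower, where 10.1% of all genes were called higher and 8.93% lower. Both comparisons use the same CM libraries, so opposite directions in them are not separate evidence. CM-JAKi against MG-CM called no member at edgeR's threshold, where 1.01% of all genes were called. DESeq2 called 2 lower and 0 higher (2.19% and 1.37% of the genes it tested). At an unadjusted edgeR p under 0.05 there were also 2 lower and 0 higher, a threshold at which the share over all genes was not counted.

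Counted per kilobase of the longest coding transcript (GENCODE M21 lengths), Sfrp2, Sfrp1 and Dkk3 were above every ligand in MG-CM. Sfrp2, at a mean of 143 CPM per kb (range 104 to 191, n = 3), stood above Sfrp1 at 49.3 (28.7 to 89.0) and Dkk3 at 18.8 (14.2 to 26.4), and the ranges of these neighbours did not overlap. Below them, Dkk2 at 6.88 (3.78 to 9.56), Wnt10a at 4.45 (4.20 to 4.68), Wnt5a at 3.71 (3.07 to 4.38) and Wnt4 at 2.43 (1.11 to 4.77) overlapped their neighbours. Wnt9a at 0.284 and Wnt2 at 0.280 followed, with overlapping ranges, and Wif1 at 0.0252 was lowest. In CM the top of the order drew together: Sfrp2 was at 13.6 CPM per kb, Sfrp1 at 10.6 and Dkk3 at 10.4, with overlapping ranges, and Dkk2 at 0.489 was below both Wnt10a and Wnt5a. Summed in CPM, the antagonists gave 896, 474 and 403 in MG-CM, 53.1, 111 and 167 in CM, and 538, 182 and 144 with the inhibitor. The 5 ligands gave 58.2, 40.5 and 47.6 in MG-CM, 42.8, 33.9 and 39.4 in CM, and 49.3, 27.7 and 27.2 with the inhibitor. The antagonist sums of CM lay below every MG-CM library, and the ligand sums of CM and MG-CM overlapped, though the ligand sum was lower in CM in each of the 3 same-numbered pairs.

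**Figure D1:**
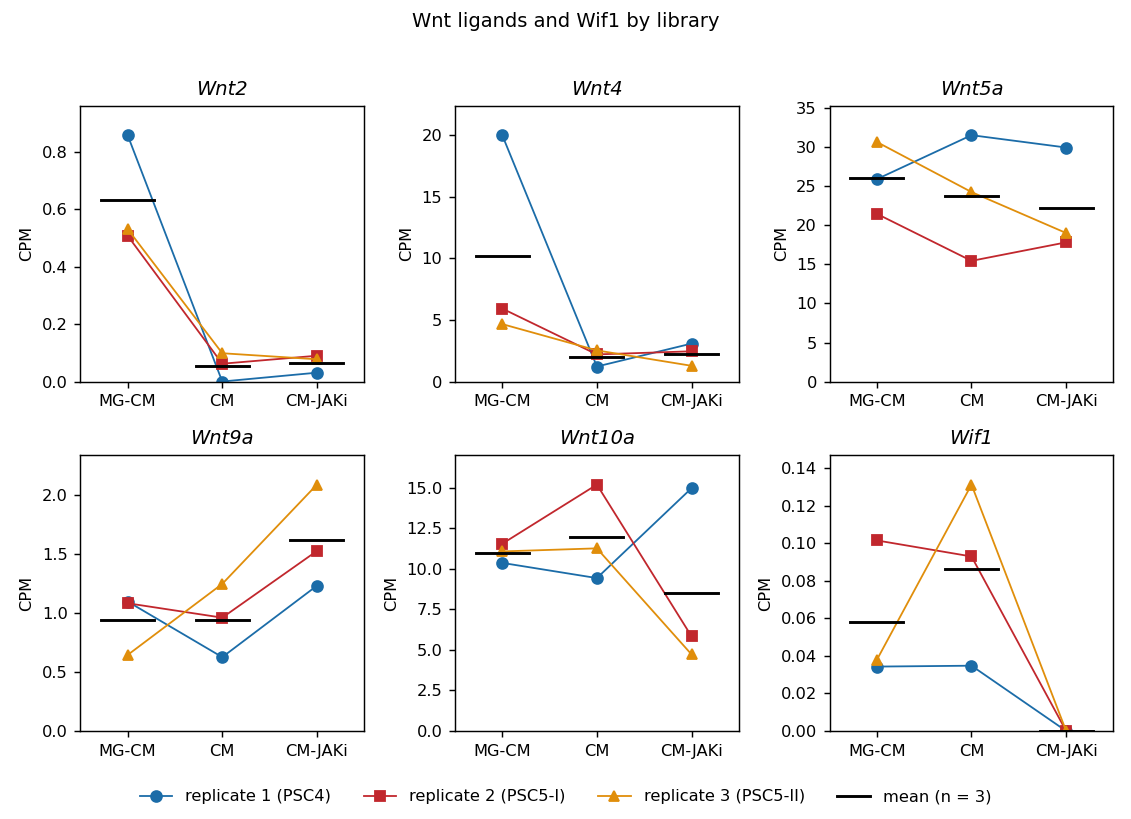
CPM of the 5 Wnt ligands and Wif1 in each library, by group on the x axis; lines join same-numbered libraries and bars are the mean of 3. All MG-CM points of Wnt2 and Wnt4 lie above those of CM and CM-JAKi, and the Wnt5a points of the groups overlap. Over all genes, 16.8% had CM wholly below MG-CM.

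Wnt2, a ligand best known for the beta-catenin branch, was close to the floor of detection outside the control medium. The MG-CM libraries held 25, 15 and 14 counts (0.857, 0.508 and 0.531 CPM), CM 0, 2 and 3, and CM-JAKi 1, 3 and 2. Pooled over libraries, MG-CM was 11.6 times CM (54 against 5 counts; exact 95% interval 4.68 to 37.2) and 9.70 times CM-JAKi (54 against 6; 4.18 to 27.6), intervals that cover counting error only. Every MG-CM library was above every other library, and 16.8% of all genes had CM wholly below MG-CM. The fit gave a log2 change of -3.44 ± 0.65 in CM against MG-CM (edgeR adjusted p = 0.0178), which passes the threshold but not without replicate 2 of MG-CM (adjusted p = 0.0639). The level with the inhibitor was also low: 0.25 ± 0.84 against CM (adjusted p = 0.861), and -3.19 ± 0.63 against MG-CM, where edgeR's adjusted p of 0.0613 became 0.0414 with the replicate block.

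Wnt4, which signals through either branch depending on the cell, was at 20.0, 5.92 and 4.66 CPM in the MG-CM libraries, 1.22, 2.20 and 2.53 in CM, and 3.08, 2.45 and 1.28 with the inhibitor. The groups in conditioned medium overlapped each other and lay below MG-CM, whose PSC4 library was more than the sum of its PSC5 libraries. Over all genes, 16.8% had CM wholly below MG-CM. In CM, Wnt4 fell by 2.36 ± 0.60 on the log2 scale (5.13-fold; edgeR adjusted p = 0.0416). That call is close to the threshold: leaving out 1 library in turn kept it in 3 of 9 fits and lost it without replicate 1 of MG-CM (adjusted p = 0.0832) or CM (0.122), replicate 2 of MG-CM (0.0832), CM (0.0869) or CM-JAKi (0.0671), or replicate 3 of CM (0.0743). CM-JAKi differed from CM by 0.20 ± 0.59 (adjusted p = 0.841), and from MG-CM by -2.16 ± 0.59 (edgeR adjusted p = 0.176; DESeq2 adjusted p = 0.00587).

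Wnt5a, the usual ligand of the polarity and calcium branch, showed no call in any comparison. It was at 25.9, 21.5 and 30.7 CPM in the MG-CM libraries, 31.6, 15.5 and 24.3 in CM and 29.98, 17.8 and 19.0 with the inhibitor, and all groups overlapped. The log2 change was -0.13 ± 0.28 in CM against MG-CM (edgeR adjusted p = 0.805) and -0.09 ± 0.28 in CM-JAKi against CM (adjusted p = 0.848; 0.01 when scaled by library size alone). Wnt9a, a beta-catenin ligand known from joints and liver, was low: 1.10, 1.08 and 0.644 CPM in the MG-CM libraries, 0.626, 0.961 and 1.25 in CM, and 1.23, 1.53 and 2.09 with the inhibitor. Its CM-JAKi libraries lay above every MG-CM library, by 0.77 ± 0.35 on the log2 scale (edgeR adjusted p = 0.497), which was not called; 8.87% of all genes had CM-JAKi libraries wholly above MG-CM.

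Wnt10a, a beta-catenin ligand known for its part in skin and teeth, was even across control and conditioned medium. Under the inhibitor its PSC4 pair went opposite to its PSC5 pairs. It was at 10.4, 11.5 and 11.1 CPM in the MG-CM libraries, 9.42, 15.2 and 11.3 in CM, and 14.96, 5.83 and 4.72 with the inhibitor. The PSC4 library was the highest of CM-JAKi and the PSC5 libraries were the lowest 2 of all 9. Over the 3 replicates, CM-JAKi against CM gave -0.49 ± 0.39 (edgeR adjusted p = 0.412). Without replicate 1 of CM-JAKi the change was -1.18 (edgeR adjusted p = 0.0141), and in the PSC5 libraries alone, with the replicate block, it was -1.31 (edgeR adjusted p = 0.00112). The change in PSC5 minus that in PSC4 was -1.99, which did not pass edgeR's test of a difference between lines over all genes. Line and medium source change together here.

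**Figure D2:**
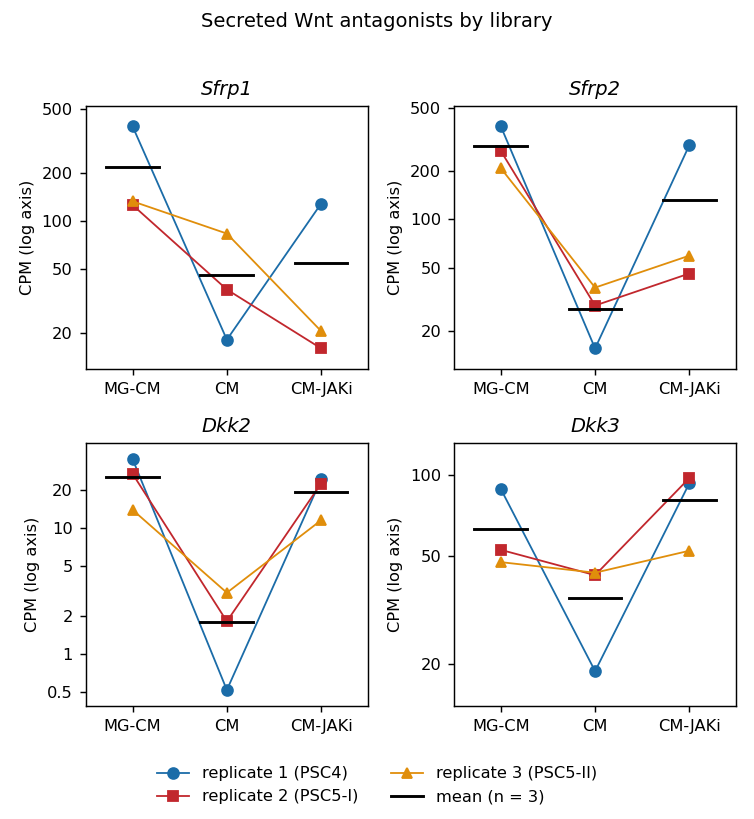
CPM of 4 secreted antagonists in each library on log axes, by group; lines join same-numbered libraries and bars are the mean of 3. Dkk2 goes down in CM and back up in CM-JAKi in every replicate, whereas Sfrp1 and Sfrp2 come back to over 100 CPM in the PSC4 library of CM-JAKi and not in the PSC5 libraries.

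Dkk2, which binds the Lrp co-receptors and can block or weakly mimic Wnt depending on the cell, had the lowest edgeR p of the members in both comparisons that involve CM. MG-CM libraries were at 35.4, 27.1 and 14.0 CPM, CM libraries at 0.521, 1.83 and 3.08, and CM-JAKi libraries at 24.5, 22.7 and 11.6. Every CM library was below every library of the other groups, and MG-CM and CM-JAKi overlapped. Over all genes, 16.8% had CM wholly below MG-CM and 20.1% had CM-JAKi wholly above CM. In CM, Dkk2 fell by 3.81 ± 0.60 on the log2 scale (14.0-fold; edgeR adjusted p = 0.0106; 0.0520 without replicate 2 of MG-CM). In CM-JAKi it rose against CM by 3.43 ± 0.59 (10.8-fold; edgeR adjusted p = 0.00702), called in each of the 9 fits that left out 1 library. Without replicate 2 in every group, with the replicate block, neither the fall (-3.59, edgeR adjusted p = 0.105) nor the rise (3.16, adjusted p = 0.0982) was called. By pair the rise was 5.38, 3.59 and 1.89, and CM-JAKi against MG-CM was -0.38 ± 0.51 (adjusted p = 0.891).

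Sfrp2, the most abundant member per kilobase, binds Wnts outside the cell. It was at 382, 268 and 209 CPM in the MG-CM libraries, 15.6, 28.9 and 37.4 in CM, and 292, 45.9 and 59.3 with the inhibitor. All CM libraries were the lowest, where 16.8% of all genes had CM wholly below MG-CM and 20.1% had CM-JAKi wholly above CM. In CM-JAKi the PSC4 library was within the MG-CM range while the PSC5 libraries lay between CM and MG-CM. In CM, Sfrp2 fell by 3.39 ± 0.72 on the log2 scale (10.5-fold; edgeR adjusted p = 0.0241), a call lost without replicate 1 of MG-CM (adjusted p = 0.0566) or CM (0.0749), or replicate 2 of MG-CM (0.0815) or CM (0.0606). CM-JAKi rose against CM by 2.28 ± 0.69 (4.85-fold; edgeR adjusted p = 0.0498; DESeq2 0.0210). That call was lost with the replicate block (1.81, adjusted p = 0.0900) and in 7 of the 9 fits that left out 1 library (adjusted p 0.0609 to 0.148, all but those without replicate 2 or 3 of CM-JAKi). The pairs rose by 4.22 in PSC4 and by 0.66 and 0.66 in PSC5. The difference between lines was -3.56 ± 0.36 (edgeR adjusted p = 0.0267 over all genes, by a test of line by group added after the values were seen), where 0.367% of all genes passed that test. PSC4 has 1 library per group, so the error of that test comes from the PSC5 libraries alone and the PSC4 libraries are assumed to vary like them. In the PSC5 libraries alone, with the replicate block, Sfrp2 was 0.67 higher in CM-JAKi than in CM (edgeR adjusted p = 0.0980) and 2.20 lower than in MG-CM on the log2 scale (-2.20, adjusted p = 0.0192).

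Sfrp1, the related Wnt-binding protein, was at 389, 126 and 132 CPM in the MG-CM libraries, 18.1, 37.2 and 83.2 in CM, and 128, 15.9 and 20.5 with the inhibitor. All CM libraries lay below all MG-CM libraries, but the fit did not call the gene: -2.22 ± 0.90 (edgeR adjusted p = 0.146; DESeq2 0.0978; 16.8% of all genes had CM libraries wholly below MG-CM). Under the inhibitor the pairs went opposite ways, 2.82 in PSC4 and -1.22 and -2.02 in PSC5, and the fit over all gave 0.25 ± 0.87 (edgeR adjusted p = 0.866; -0.44 with the replicate block, adjusted p = 0.730). In the PSC5 libraries alone, with the replicate block, Sfrp1 in CM-JAKi was below CM by -1.66 (edgeR adjusted p = 0.0288) and below MG-CM by -2.85 (adjusted p = 0.0252). The difference between lines, -4.55 ± 0.68, did not pass over all genes (edgeR adjusted p = 0.101).

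Dkk3, a divergent Dkk protein whose action on Wnt is unsettled, was at 88.7, 52.9 and 47.6 CPM in the MG-CM libraries, 18.8, 42.6 and 43.5 in CM, and 93.2, 97.5 and 52.5 with the inhibitor. CM libraries lay below all others, though the PSC5 libraries of CM were close to those of MG-CM, and 16.8% of all genes had CM wholly below MG-CM. The change in CM was -0.85 ± 0.37 (edgeR adjusted p = 0.178) and in CM-JAKi against CM 1.21 ± 0.38 (edgeR adjusted p = 0.0546; DESeq2 0.00656); 20.1% of all genes had CM-JAKi libraries wholly above CM. Wif1, a Wnt-binding protein, was at the limit of detection with 1, 3 and 1 counts in MG-CM, 1, 3 and 4 in CM and 0, 0 and 0 with the inhibitor. Pooled, and scaled here by library size alone without TMM, it was at 0.0594 CPM in MG-CM and 0.0841 in CM (exact 95% intervals 0.0193 to 0.139 and 0.0363 to 0.166). On the same scale the count of 0 in CM-JAKi has an exact 95% upper limit of 0.0414 CPM (3.69 counts). These limits cover counting error only. With no filter on low counts, edgeR gave Wif1 an adjusted p of 0.0569 in CM-JAKi against CM, which misses the threshold.

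**Figure D3:**
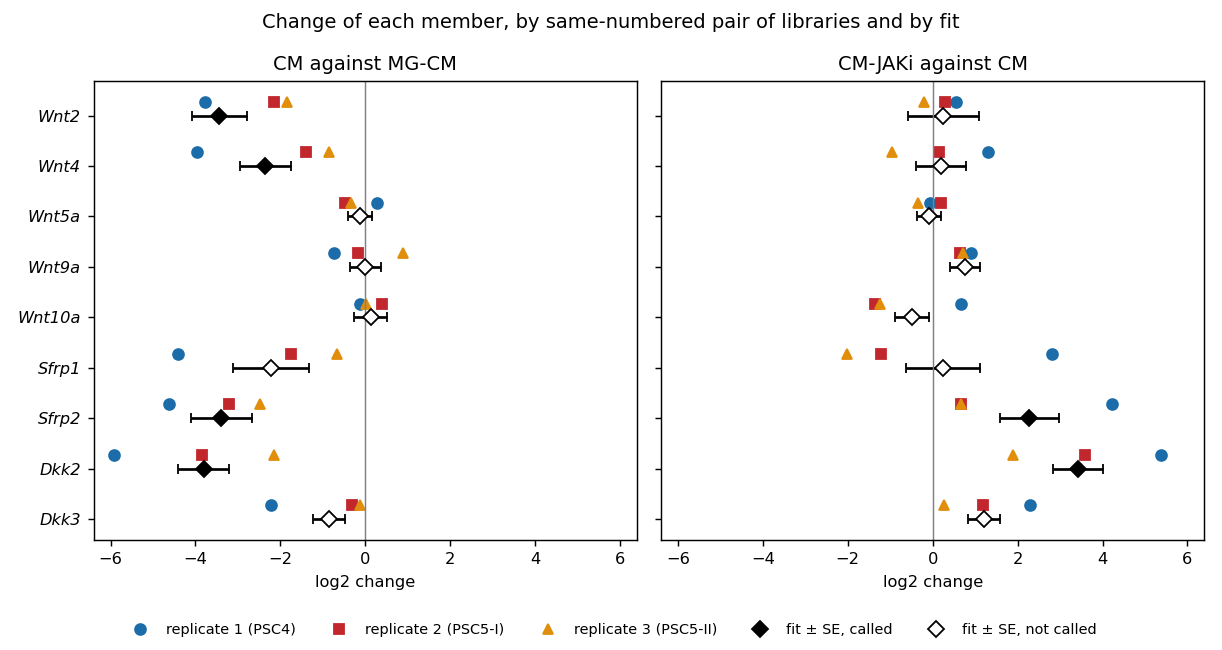
Log2 change of the 9 tested members, by same-numbered pair (coloured points) and by edgeR's fit over 3 libraries a group (diamonds with SE; filled where the adjusted p is under 0.05). Left, CM against MG-CM, where the filled diamonds are Wnt2, Wnt4, Sfrp2 and Dkk2; right, CM-JAKi against CM, where they are Sfrp2 and Dkk2 and the PSC4 point of Sfrp1 lies opposite to the PSC5 points.

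Replicate 1 weighed on several of these values. In the PSC5 libraries alone, with the replicate block, the same 4 members were lower in CM (10.6% of all genes in that fit), with log2 changes of -2.65 for Wnt2, -1.15 for Wnt4, -2.87 for Sfrp2 and -2.99 for Dkk2. CM-JAKi against MG-CM there called 5 members lower, Wnt2, Wnt4, Wnt10a, Sfrp1 and Sfrp2, where 3.57% of all genes were called lower. Against CM, Dkk2 was called higher at 2.73 (adjusted p = 0.0240; 16.3% of all genes were called higher), and Wnt10a and Sfrp1 were called lower, where 14.6% of all genes were called lower. All these p-values are from edgeR, and that fit has 2 libraries a group from 1 line.

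For the members with the 4 smallest p in CM against MG-CM, the gene with the most similar profile over the 9 libraries (Pearson r of log2 CPM among 10232 genes) was Cdkn1b for Dkk2 (0.995), Smap2 for Wnt2 (0.982), Ppl for Wnt4 (0.962) and Arl6ip5 for Sfrp2 (0.961). The 9 libraries share 3 groups and 3 replicate numbers, so these values are a description.

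Around the members, 8 lists of Wnt pathway genes held 126 genes, of which 120 were in the table and 101 were tested. These lists too were chosen with earlier results of these data known, so their counts are a description. Some genes stand in several lists, so the counts of single lists are not separate. In CM against MG-CM, 19 were called lower and 2 higher (5.39% and 4.85% over all genes), with a median log2 change of -0.21 against 0.01 over all genes. Leaving out 1 library moved the lower count between 2 and 20, with the 2, Sox4 and Daam2, without replicate 2 of MG-CM; with the replicate block it was 32 lower and 7 higher (12.8% and 11.6% of all genes), and DESeq2 gave 29 lower and 6 higher (8.94% and 8.23%). In CM-JAKi against CM, 19 were called higher and 6 lower (10.1% and 8.93% over all genes; median 0.16 against 0.01), with 10 higher and 3 lower without replicate 2 of CM-JAKi and 32 higher and 9 lower with the block (18.6% and 15.6% of all genes). Between CM-JAKi and MG-CM edgeR called 0 of the 101 (1.01% over all genes). The block called 3, where it called 4.25% of all genes, and DESeq2 called 3 higher and 1 lower (1.37% and 2.19% of the genes it tested). At an unadjusted edgeR p under 0.05 there were 4 higher and 7 lower, and the share over all genes was not counted there.

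Among other antagonists that act outside the cell or at its surface, 3 of 5 tested were lower in CM and 3 of 5 higher in CM-JAKi than in CM. Over all genes these shares were 5.39% and 10.1%. Without Apcdd1, which stays in the membrane, the antagonist counts are 2 of 4 each. Sfrp4, another Wnt-binding Sfrp, was at 24.7, 38.9 and 27.5 CPM in the MG-CM libraries, 3.62, 5.02 and 7.61 in CM and 9.79, 25.8 and 17.2 with the inhibitor. In CM it fell by 2.49 ± 0.39 on the log2 scale (edgeR adjusted p = 0.0109) and in CM-JAKi it rose by 1.70 ± 0.38 (0.0190; 0.0607, 0.0550 and 0.0685 without CM replicate 1, CM replicate 2 or CM-JAKi replicate 2). Apcdd1, a membrane-bound inhibitor that is also a Wnt target, was at 26.9, 27.3 and 32.1 CPM in the MG-CM libraries, 4.902, 11.3 and 11.9 in CM and 21.2, 20.3 and 21.0 with the inhibitor. Its changes were -1.62 ± 0.28 (edgeR adjusted p = 0.0139) and 1.15 ± 0.28 (0.0238; 0.0712 and 0.0582 without replicate 2 or 3 of CM-JAKi). Notum, an enzyme that removes the lipid from Wnt proteins, was called lower in CM by -1.86 ± 0.49 (edgeR adjusted p = 0.0458; lost in 6 of 9 fits that left out a library, up to 0.154 without replicate 2 of MG-CM) and was 1.59 ± 0.49 in CM-JAKi against CM (edgeR adjusted p = 0.0527; 0.0104 with the block). Frzb, also known as a secreted Frizzled-related protein, rose in CM-JAKi by 1.41 ± 0.30 (edgeR adjusted p = 0.0147; 0.0621 without replicate 2 of CM-JAKi). In CM-JAKi against MG-CM edgeR called 0 of the 5 antagonists, while the block and DESeq2 each called 1 higher. Of the 5, Frzb alone had a higher mean in CM-JAKi than in MG-CM (7.99 against 3.96 CPM).

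Of 5 other Wnt ligands tested, none was called in CM against MG-CM by edgeR. DESeq2 called 2 of them lower, where it called 8.94% of the genes it tested lower. Wnt5b, a relative of Wnt5a, was called higher in CM-JAKi than in CM: 1.36, 1.05 and 0.787 CPM in CM against 2.92, 2.42 and 2.67, a log2 change of 1.32 ± 0.28 (edgeR adjusted p = 0.0147) held in every fit that left out 1 library. In CM against MG-CM it was -0.99 ± 0.28 (edgeR adjusted p = 0.0577; 0.0282 with the block). Of 10 genes of Wnt secretion, Tmed5, a cargo receptor of the early secretory path, was higher in CM (0.57, edgeR adjusted p = 0.0132; 0.0620 without replicate 2 of MG-CM) and lower in CM-JAKi (-0.51, adjusted p = 0.0101). Wls, which carries Wnts to the cell surface, was at 432, 551 and 526 CPM in the MG-CM libraries, 235, 384 and 354 in CM and 378, 462 and 409 with the inhibitor. Its CM value was -0.63 ± 0.19 against MG-CM (edgeR adjusted p = 0.0637; 0.00690 with the block) and 0.36 ± 0.19 in CM-JAKi against CM (edgeR adjusted p = 0.205; 0.0291 with the block). Porcn, which adds the lipid, gave 0.14 ± 0.47 (adjusted p = 0.881).

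Among 16 receptors and co-receptors, 3 were lower in CM (Fzd2, Lrp6 and Ryk) and 4 higher in CM-JAKi against CM (Fzd2, Fzd5, Lrp6 and Kremen1). With the block these counts were 8 and 9. Leaving out 1 library, Fzd2 in CM lost its call in 7 of 9 fits (edgeR adjusted p up to 0.112) and Ryk in 4 (up to 0.0874); in CM-JAKi against CM, Fzd5 lost it in 8 (up to 0.132) and Kremen1 in 5 (up to 0.124), while Fzd2 kept it in all 9. Ryk in CM-JAKi against CM was 0.28 (edgeR adjusted p = 0.0715; 0.0490 with the block). Over all genes the calls were 5.39% lower in CM and 10.1% higher in CM-JAKi, and with the block 12.8% and 18.6%. Lrp6, a co-receptor that Dkk2 binds, was at 325, 249 and 236 CPM in the MG-CM libraries, 172, 176 and 187 in CM and 356, 350 and 296 with the inhibitor. It rose in CM-JAKi against CM by 0.91 ± 0.13 (edgeR adjusted p = 0.00402, and called in every fit that left out 1 library). In CM it fell by 0.60 ± 0.13 (edgeR adjusted p = 0.0279), a call lost in 5 of 9 such fits, with adjusted p from 0.0534 to 0.0825 without replicate 1 or 2 of MG-CM or any CM library. Of 5 genes of the R-spondin axis, Rspo2, a secreted amplifier of Wnt signals, was at 2.16, 8.59 and 6.18 CPM in the MG-CM libraries, 0.417, 1.08 and 0.919 in CM and 10.9, 5.27 and 5.34 with the inhibitor. Its changes were -2.79 ± 0.58 (edgeR adjusted p = 0.0226; 0.0513 to 0.0874 without replicate 1 or 3 of CM or 2 or 3 of MG-CM) and 3.14 ± 0.58 (edgeR adjusted p = 0.00913).

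**Figure D4:**
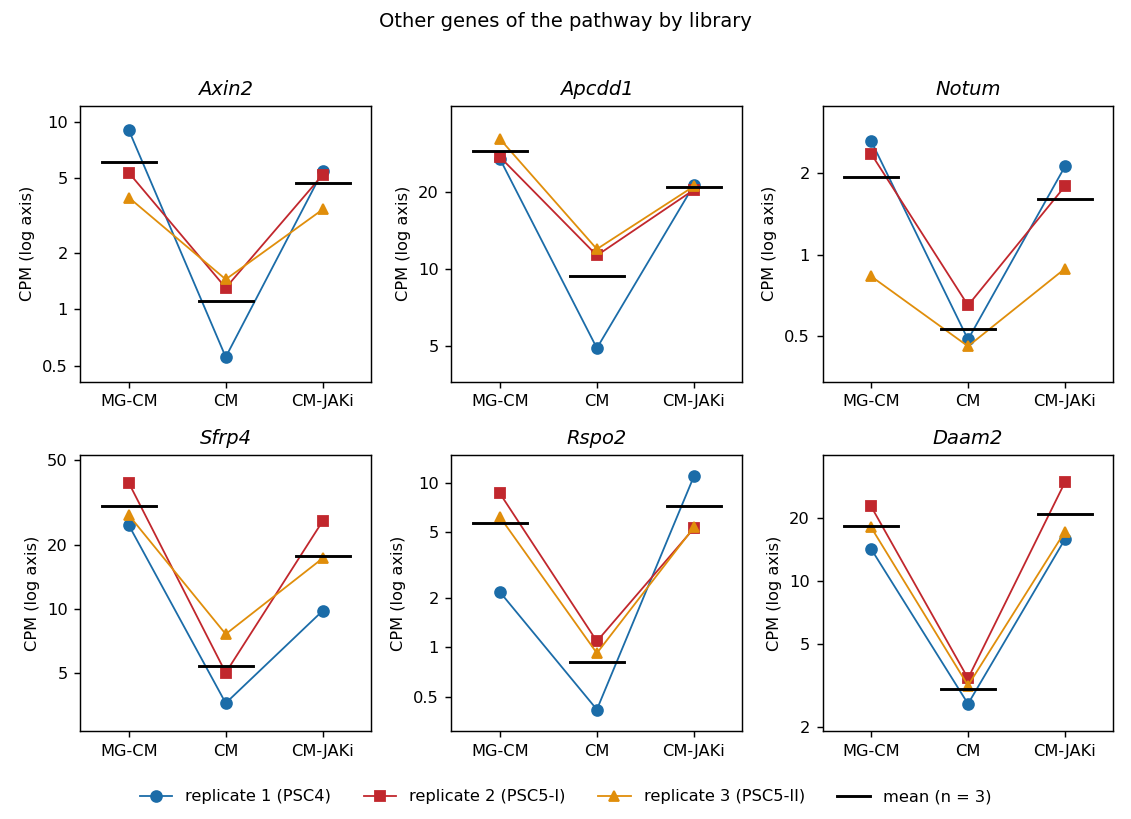
CPM of 6 further Wnt pathway genes in each library on log axes, by group; lines join same-numbered libraries and bars are the mean of 3. For each of the 6, chosen among genes with small p-values, the CM libraries are the lowest 3 of the 9; over all genes 16.8% had CM wholly below MG-CM and 20.1% CM-JAKi wholly above CM.

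Beta-catenin target genes did not move as one. Of 21 tested, 6 were lower in CM (Axin2, Nkd1, Id2, Sox4, Notum and Apcdd1) and none was called higher, where 5.39% and 4.85% of all genes were. Notum and Apcdd1 are also counted among the antagonists above. The block called 3 higher (11.6% of all genes) and DESeq2 4 (8.23% of the genes it tested). In CM-JAKi against CM, 3 were higher (Axin2, Sox4 and Apcdd1) and 5 lower (Myc, Wisp1, Tnfrsf19, Fosl1 and Znrf3), where 10.1% and 8.93% of all genes were. Of these 5, Znrf3 lost its call in all 9 fits that left out 1 library (edgeR adjusted p up to 0.140), and Tnfrsf19 in 8 of 9, all but that without replicate 3 of CM (up to 0.157). Fosl1 lost its call without replicate 1 or 2 of CM-JAKi (0.0664 and 0.102). Axin2, a feedback inhibitor and a widely used readout of the branch, was at 9.02, 5.35 and 3.94 CPM in the MG-CM libraries, 0.556, 1.30 and 1.44 in CM and 5.45, 5.21 and 3.40 with the inhibitor. In CM it fell by 2.46 ± 0.43 (edgeR adjusted p = 0.0137; 0.0557 without replicate 2 of MG-CM) and rose in CM-JAKi by 2.08 ± 0.42 (edgeR adjusted p = 0.0127). Sox4, a transcription factor, fell by 0.84 ± 0.14 (edgeR adjusted p = 0.0115) and rose by 1.09 ± 0.14 (0.00197). Myc, a driver of growth, was at 43.4, 42.4 and 52.3 CPM in the MG-CM libraries, 90.7, 71.9 and 59.0 in CM and 26.1, 31.9 and 39.3 with the inhibitor. In CM against MG-CM it was 0.68 ± 0.19 (edgeR adjusted p = 0.0536; 0.0491 with the block). In CM-JAKi against CM it fell by 1.19 ± 0.19 (edgeR adjusted p = 0.00548), and the secreted protein Wisp1 fell by 0.80 ± 0.14 (0.00684). In CM against MG-CM Wisp1 was 0.50 ± 0.14 (edgeR adjusted p = 0.0510; 0.0242 with the block). Lef1, both a Wnt effector and a target, was 0.42 ± 0.24 in CM against MG-CM (edgeR adjusted p = 0.290) and -0.40 ± 0.24 in CM-JAKi against CM (adjusted p = 0.268).

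Of 22 pathway components, 4 were lower in CM (Ctnnbip1, Tcf7l1, Tcf7l2 and Tle2) and 1, Dvl1, was higher, where 5.39% and 4.85% of all genes were. In CM-JAKi against CM 4 were higher (Ctnnbip1, Tcf7l1, Tle2 and Tle4), where 10.1% of all genes were. In fits that left out 1 library, Dvl1 lost its call in 8 of 9 (edgeR adjusted p up to 0.147), Tle4 in 8 of 9 (up to 0.137), and in CM against MG-CM Tle2 in 6 (up to 0.117) and Ctnnbip1 and Tcf7l2 in 4 each (up to 0.101 and 0.0842). Tcf7l2 in CM-JAKi against CM was 0.76 ± 0.24 (edgeR adjusted p = 0.0541; 0.0395 with the block). Tcf7l1, a mostly repressing Tcf factor, changed by -0.79 ± 0.15 (edgeR adjusted p = 0.0190; 0.0635 without replicate 2 of MG-CM) and 0.81 ± 0.15 (edgeR adjusted p = 0.00980). Beta-catenin's own gene, Ctnnb1, was at 882, 776 and 770 CPM in the MG-CM libraries, 928, 796 and 829 in CM and 912, 807 and 765 with the inhibitor, with changes of 0.07 ± 0.12 and -0.04 ± 0.12 (edgeR adjusted p = 0.731 and 0.839) that changed sign when scaled by library size alone. Of 21 genes of the polarity and calcium branch, 4 were lower in CM and 4 higher in CM-JAKi against CM, in both cases Prickle2, Daam1, Daam2 and Prkca. Over all genes these shares were 5.39% and 10.1%. Fits that left out 1 library lost the calls in CM of Daam1 in 6 of 9 (edgeR adjusted p up to 0.0995), Prkca in 4 (up to 0.107) and Prickle2 in 2 (up to 0.0874), and in CM-JAKi against CM those of Prickle2 in 4 (up to 0.0889) and Prkca in 3 (up to 0.0758). Daam2, a formin that binds Dishevelled, was at 14.3, 22.8 and 18.1 CPM in the MG-CM libraries, 2.57, 3.41 and 3.15 in CM and 15.9, 29.8 and 17.3 with the inhibitor. Its changes were -2.59 ± 0.28 (edgeR adjusted p = 0.00569) and 2.78 ± 0.29 (edgeR adjusted p = 0.000705), each called in every fit that left out 1 library.

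Single markers of some other cell types moved with the groups. Of 5 endothelial markers, 4 were tested, and Tek and Emcn were called lower in CM and higher in CM-JAKi. Emcn was also called higher in CM-JAKi than in MG-CM. Pecam1 and Cdh5 did not follow them, and Kdr had a lower mean in CM but no rise in CM-JAKi. Group means in MG-CM, CM and CM-JAKi were 0.246, 0.380 and 0.267 CPM for Pecam1 and 0.0832, 0.227 and 0.0586 for Cdh5. Kdr was at 2.01, 1.09 and 0.938. The summed level of the 5 ranged over 4.85 to 6.10 CPM in the MG-CM libraries, 2.17 to 2.64 in CM and 7.97 to 15.7 in CM-JAKi. Emcn, at a mean of 7.54 CPM in CM-JAKi, was the largest part of the sum there. Leukocyte markers (5 of 7 in the table, 2 tested) summed to 21.1 to 33.4, 32.4 to 116 and 14.2 to 31.1 CPM in the same order of groups. Most of that sum was Cd14 (means 26.8, 64.6 and 19.3 CPM), which was called lower in CM-JAKi than in CM. Cd68 had means of 1.65, 1.93 and 1.74 CPM. Mesothelial markers ranged over 2.68 to 15.6, 1.22 to 67.2 and 6.28 to 54.2 CPM, and ductal markers over 34.5 to 49.2, 34.4 to 37.0 and 28.6 to 45.0 CPM. Acinar and endocrine markers were at 7.27 to 8.53, 9.56 to 14.0 and 5.66 to 7.89 CPM, with Cpa1 and Gcg under 3 counts in every library, and Schwann and neural markers at 1.59 to 2.57, 1.38 to 1.77 and 1.59 to 2.59 CPM. Their part in the members' values was not tested.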

How the data were processed

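The table held counts made by the authors, deposited as estimated counts of RSEM rounded to whole numbers (expected counts, read so from the values and from RSEM being named). Per the submitters' processing notes, RSEM 1.2.29, STAR 2.5.1b and DESeq2 were used with the builds NCBIM37 and mm9, roles not given; libraries were stranded and depleted of ribosomal RNA, per the labels' protocols. Every gene in the table had counts in at least 2 libraries.

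The fits used edgeR 4.0.16 (R 4.3.3), with limma 3.58.1, and DESeq2 1.42.0 as an alternative. filterByExpr (minimum count 10, minimum total 15) kept 13613 of 17156 genes. All 9 libraries entered one quasi-likelihood fit with TMM scaling, a term per group and robust estimation; p-values were adjusted by Benjamini-Hochberg. Log2 CPM by pair used a prior count of 2. Replicates are separate cultures with separate medium sources. With each gene's log2 CPM centred on its group mean, same-numbered libraries deviated together (r 0.291 to 0.680 over 9 pairs). The 18 pairs of other numbers had r of -0.536 to 0.279. Centring makes the deviations within a group cancel, so these lower values are in part set by the first. Same-numbered libraries also share line and medium, so the numbers were taken to pair the samples. Alternatives were the replicate block, DESeq2, RLE factors, library size alone, no filter, the 2 groups alone, and leaving out each library or replicate number; the test of line by group was added after seeing the data.

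The members and the lists were chosen with earlier results of these data known. All members are named; from each pathway list, up to 3 genes with the smallest p in each comparison, plus Axin2, Lef1, Ctnnb1, Lrp6, Porcn and Wls. Fzd5, Tle4, Fosl1, Nkd1, Id2 and the markers were named after their values were seen. Promoters and motif letters came from RefSeq windows of GRCm38.p6, another build than the counts.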

Additional observations from a re-analysis of the deposited data

Results flagged for a closer look

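For 4 members the change was set apart between PSC4 (replicate 1) and PSC5 (replicates 2 and 3) in some comparison, either because every pair of one line moved opposite to those of the other or by a test of the difference. Line and medium source change together, so they cannot be told apart, and PSC4 has 1 library per group: the error of the test comes from the PSC5 libraries alone, and PSC4 is assumed to vary like them. The difference is given as the log2 change in PSC5 minus that in PSC4, and its adjusted p is from edgeR's test of line by group over all genes. In CM-JAKi against CM it was -3.56 for Sfrp2 (adjusted p = 0.0267), under the threshold, with a rise in each pair. For Sfrp1 it was -4.55 (adjusted p = 0.101) and for Wnt10a -1.99 (adjusted p = 0.0868), with opposite directions and no pass of the test. Opposite directions with small differences were seen for Wnt5a and Wnt10a in CM against MG-CM (-0.68, adjusted p = 0.512, and 0.36, adjusted p = 0.626) and in CM-JAKi against MG-CM (-0.71, adjusted p = 1, and -1.62, adjusted p = 0.788). Members that moved the same way in both lines could differ more without passing: in CM against MG-CM the difference was 5.04 for Wnt2, 2.87 for Wnt4, 3.33 for Sfrp1, 3.01 for Dkk2, 2.01 for Dkk3 and 1.77 for Sfrp2, the fall being larger in PSC4 for each. The Wnt2 value (SE 1.78) rests on a count of 0 in the PSC4 library of CM. With the prior count, its pairs changed by -3.79 in PSC4 and by -2.16 and -1.85 in PSC5. Over all genes that test passed for 31 genes in CM against MG-CM, 50 in CM-JAKi against CM and 0 in CM-JAKi against MG-CM.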

How the results depend on the processing

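With the replicate block, genes called higher and lower over the whole table were 1577 and 1748 in CM against MG-CM, 2529 and 2126 in CM-JAKi against CM, and 252 and 327 in CM-JAKi against MG-CM. DESeq2 gave 1192 and 1294 in CM against MG-CM and 194 and 310 in CM-JAKi against MG-CM, and a fit on the 2 groups alone gave 362 and 431 in CM against MG-CM and 836 higher in CM-JAKi against CM. Members higher in CM-JAKi against CM were 1 with the replicate block, with no filter and with the 2 groups alone. Members lower in CM-JAKi against MG-CM were 1 with the replicate block, 2 by DESeq2 and 1 with the 2 groups alone. Among the named genes, signs turned for Wnt9a in CM against MG-CM (-0.044 with the block, -0.071 by library size alone), Ctnnb1 by library size alone (-0.0024 in CM against MG-CM, 0.059 in CM-JAKi against CM), and in CM-JAKi against CM for Wnt2 with the 2 groups alone (-0.097), Wnt5a by library size alone (0.013) and Sfrp1 with the block (-0.44); none of these was called.

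Leaving out 1 library at a time, in CM against MG-CM members lower ranged over 0 to 4 (0 without replicate 2 of MG-CM), all genes higher over 45 to 702 and lower over 86 to 740. In CM-JAKi against CM, members higher ranged over 1 to 3, members lower over 0 to 1, all genes higher over 512 to 1317 and lower over 479 to 1300. In CM-JAKi against MG-CM, members lower ranged over 0 to 1, all genes higher over 8 to 67 and lower over 21 to 118. Signs turned in CM against MG-CM for Porcn (-0.17 to 0.75), Wnt10a (-0.088 to 0.26), Wnt5a (-0.39 to 0.10) and Wnt9a (-0.24 to 0.22), and in CM-JAKi against CM for Ctnnb1 (-0.12 to 0.022), Porcn (-0.051 to 0.51), Sfrp1 (-1.35 to 0.98), Wnt2 (-0.27 to 0.92), Wnt4 (-0.083 to 0.47) and Wnt5a (-0.37 to 0.16).

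Leaving out a whole replicate number, with the block, gave 243 to 1342 genes higher and 237 to 1446 lower in CM against MG-CM (members lower 0 to 4), 764 to 2212 and 668 to 1981 in CM-JAKi against CM (members higher 0 to 1, lower 0 to 2), and 6 to 510 and 15 to 485 in CM-JAKi against MG-CM (members lower 0 to 5). Signs turned in CM against MG-CM for Wnt9a (-0.47 without replicate 3) and Wnt10a (-0.038 without replicate 2), and in CM-JAKi against CM for Wnt4 (-0.35 without replicate 1, -0.032 without replicate 2), Sfrp1 (-1.66 and -0.0028) and Wnt5a (0.054 without replicate 3). The cause was not tested; with fewer libraries the fit has fewer degrees of freedom. Depth limits Wnt2, Wif1 and Wnt9a, which had the fewest counts of the members.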
